A study of Xenopus tropicalis x Xenopus laevis and Xenopus tropicalis with 6 samples.

Results

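Chromosome 3L of *Xenopus laevis*, the African clawed frog, was followed in hybrid embryos that received it from the father. Its members were the 1474 features of the deposited count table that are *X. laevis* transcript models placed on 3L, out of 27182 *X. laevis* features and 45244 features in all. They were put in order by the number in the model name, which on 3L forms an unbroken block holding 0 features of any other chromosome, and a position from 1 to 1474 is a rank in that order and not a coordinate. Of the members, 753 carried a gene symbol and 509 only a model name, 869 shared their name with an *X. tropicalis* feature, and 502 had an S partner of the same name, 501 of these on chromosome 3S. Over the 780 names whose *X. tropicalis* feature lies on chromosome 3 of that species, the order of the names in the 2 species had a Spearman correlation of 0.9958, given as a description of how well model number stands for position.

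The hybrids came from *X. tropicalis* eggs fertilized with *X. laevis* sperm (libraries 40, 41 and 42), and the comparison embryos had *X. tropicalis* as both parents (libraries 37, 38 and 39). Whole embryos were taken 7 hours after fertilization in both groups, polyA RNA was sequenced, and the series text calls the 3 libraries of each group biological replicates. The labels give no frog strain, no clutch and no number of embryos per library. *X. tropicalis* embryos hold no *X. laevis* genome, so their reads on 3L features measure the background of reads counted on the wrong species.

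*X. laevis* is an allotetraploid whose genome keeps most ancestral chromosomes as a long (L) and a short (S) partner, and the gene copies on the partners are called homeologues. *X. tropicalis* is a diploid relative with one ancestral set, so a gene on 3L often has an S homeologue from the father and an *X. tropicalis* orthologue from the mother in the same hybrid embryo. The *X. tropicalis* embryos hold that orthologue from both parents, so the groups differ in its copy number. In frogs, development starts on RNA stored in the egg, and the embryo's own genome is switched on at the mid-blastula transition. A paternal RNA at this stage therefore comes mainly from transcription in the embryo.

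Total counts were 71435751 to 88526278 per hybrid library and 90144765 to 100025277 per *X. tropicalis* library. The 3L features took 0.519, 0.575 and 0.554% of them in the hybrid libraries, against 0.355, 0.399 and 0.377% in the *X. tropicalis* libraries. Scaled to library size as CPM, the 3L sum was 5314, 5952 and 6078 in hybrids, against 3422, 3795 and 3538 in *X. tropicalis*. The groups did not overlap, with an exact 2-sided permutation p of 0.1, the smallest that 3 libraries against 3 can give. Most of the counts on 3L features were thus present without any *X. laevis* genome. This background was concentrated: 112 of the 1474 features had over 5 CPM in *X. tropicalis* libraries and held 86.8% of it.

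A paternal feature was called above background when the edgeR quasi-likelihood test, run over all *X. laevis* features with Benjamini-Hochberg adjustment, gave an adjusted p under 0.05 and a higher level in hybrids. On 3L, 254 of 1234 tested features were above background, which is 20.6%, against 39.1% of all tested *X. laevis* features. Counted over all members, tested or not, the share was 17.2% on 3L, 17.9% on 4L and 35.3 to 38.4% on the other 7 L chromosomes. The S chromosomes ranged from 36.4 to 41.5%. Of the 3L members, 240 had too few counts to be tested and 124 had 0 counts in all hybrid libraries. Another 10 of the 1234 lay below background, against 0.287% of all tested features, and among them *dyrk2.L* averaged 14.5 CPM in the hybrid libraries, against 39.1 CPM in those of *X. tropicalis*. The median log2 fold change over tested features was 2.86 on 3L and 5.67 over all *X. laevis* features.

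The net level, which is what remains of the hybrid CPM once the mean of the *X. tropicalis* libraries is taken off, was 1.17, 1.61 and 1.69 CPM per 3L feature in the 3 hybrid libraries, a mean of 1.49 ± 0.278 (SD, n = 3). The 3S chromosome had 3.92 ± 0.415 and 4L had 1.09 ± 0.102 CPM per feature. The other 7 L chromosomes lay between 3.85 and 5.52. The 3L level was below the 3S level in 3 of 3 hybrid libraries, by 1.41 ± 0.13 on the log2 scale (a difference of levels per feature, 2.65-fold), and it was above the 4L level in the same 3 libraries by 0.44 ± 0.15. An exact sign-flip test over 3 libraries cannot give a p below 0.25, which is the value of both comparisons. Without *ccng1.L*, 3L had 0.937, 1.36 and 1.47 CPM per feature, against 0.974, 1.11 and 1.17 on 4L. The order of 3L and 4L in library 40 thus rested on that gene. The median net level of a feature was 0.219 CPM on 3L and 0.233 CPM on 4L.

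**Figure D1:**
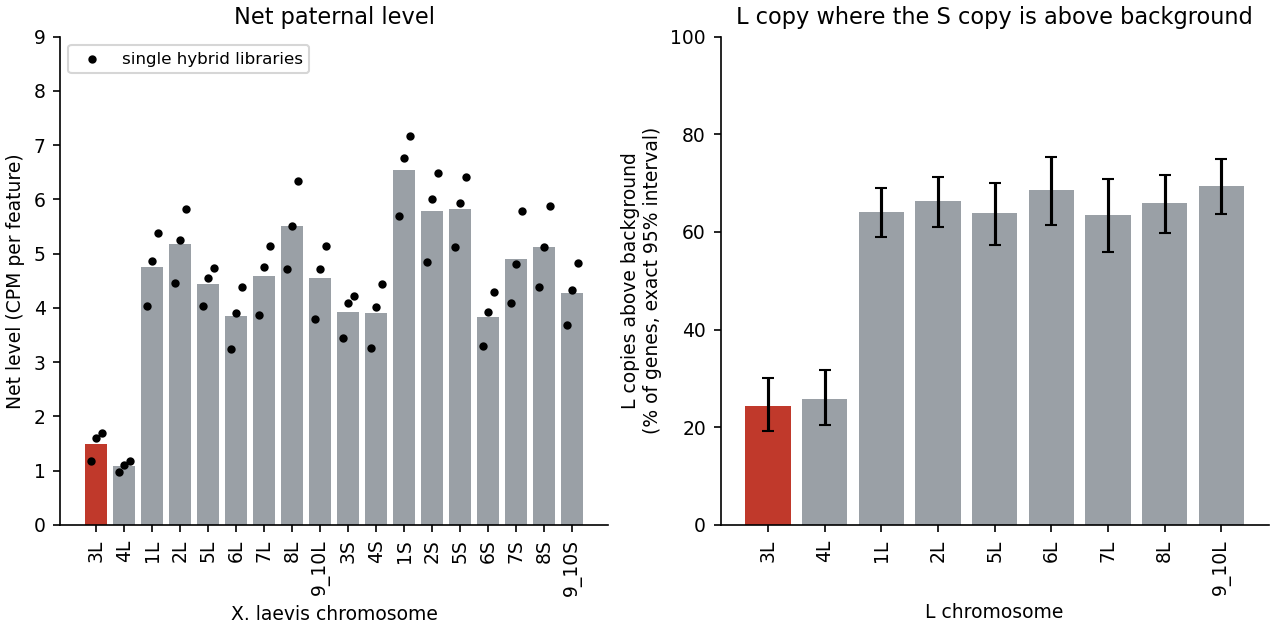
Left, net paternal level of each *X. laevis* chromosome in CPM per feature, with 3L in red, 4L next to it, and dots for the 3 hybrid libraries. Right, share of L copies above background among genes whose S copy is above background, with exact binomial 95% intervals; 3L at 24.3% and 4L at 25.8% lie apart from the other 7 L chromosomes, at 63.5 to 69.5%.

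The S homeologue gives a check gene by gene, because a paternal S copy above background belongs to a gene whose paternal RNA is measurable in these embryos. On 3L, 251 genes had such an S copy, and the L copy was above background in 61 of them, or 24.3% (exact binomial interval 19.1 to 30.1%). On 4L the share was 25.8%, and on the other 7 L chromosomes it was 63.5 to 69.5%. The net level of the 3L copy was under 10% of the S copy in 153 of the 251 genes (61.0%). On 4L this held for 126 of 244 genes (51.6%), and on the other 7 L chromosomes for 305 of 1806 (16.9%). The 3L copy was over 50% of the S copy in 49 of the 251 genes (19.5%), against 56 of the 244 (23.0%) on 4L and 1006 of the 1806 (55.7%). Summed over genes, the 3L copies gave 22.6% of the S level, and *ccng1.L* alone accounted for much of this: without that gene the 3L sum was 11.5% of S. The sum was 21.2% on 4L and 91.4 to 140% on the other 7 L chromosomes. Intervals on shares of features cover counting error only.

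The expressed features were not spread evenly. In the first 50 positions 2 features were above background, in the next 4 windows of 50 the counts were 19, 20, 17 and 16, and in every full window from position 251 on they were 3 to 13. A pair of boundaries placed where the binomial likelihood of the calls was highest, chosen after the windows had been seen, set off positions 70 to 238, from the model Xelaev18016692m to *pcdha13.L*, whose call was lost in 5 of 12 alternative settings. In this block 70 of 169 features were above background (41.4%, exact interval 33.9 to 49.2%), against 180 of 1236 (14.6%, 12.6 to 16.7%) at positions 239 to 1474. The 69 positions before the block held 4 such features (5.80%). The shares describe a division made from the same calls and carry no test.

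**Figure D2:**
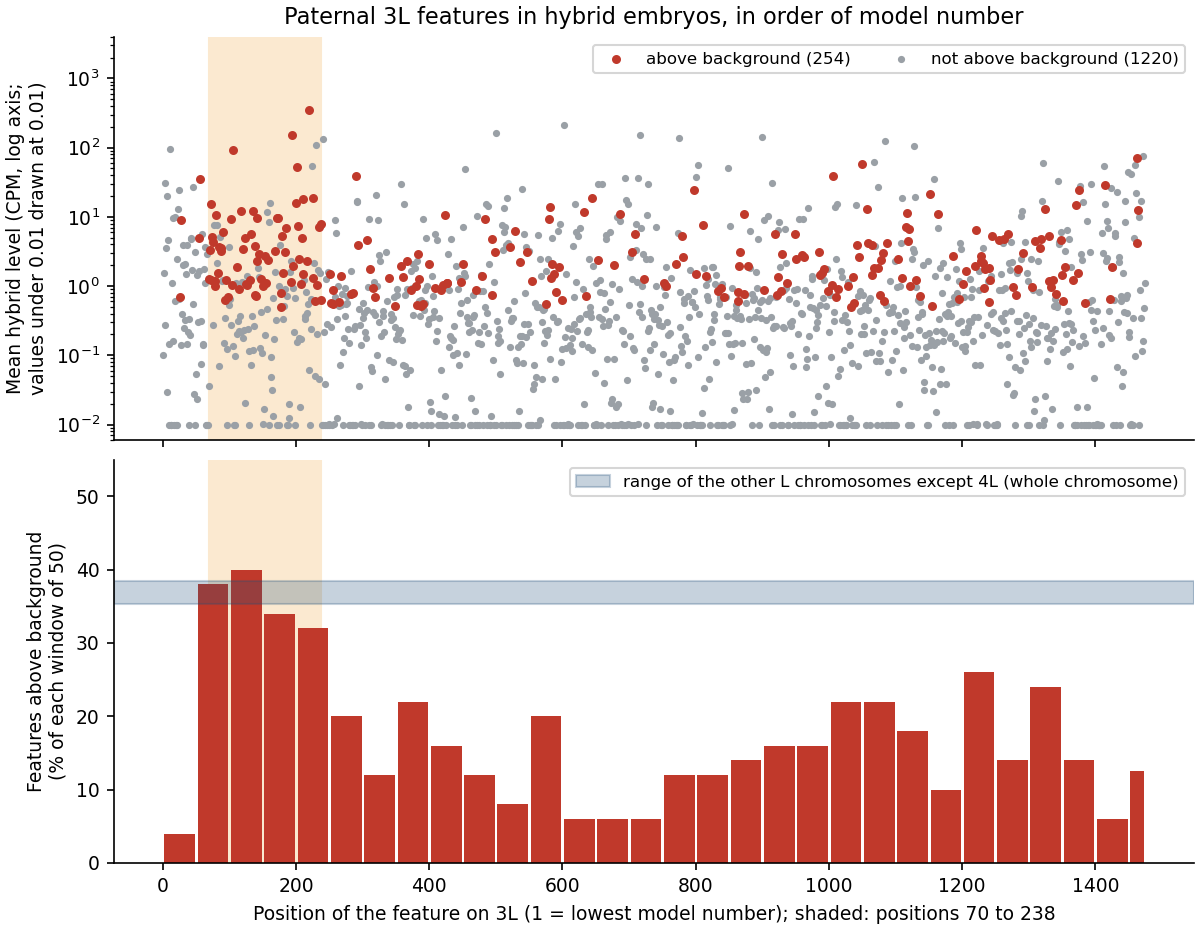
Top, mean hybrid CPM (log axis) of each of the 1474 paternal 3L features by position, red where above background and grey where not. Bottom, percent of features above background in windows of 50, with the 35.3 to 38.4% of the other 7 L chromosomes as a band; windows inside the shaded block (positions 70 to 238) come near the band and all windows from position 251 on lie below it.

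The division was repeated in each hybrid library alone, with a feature counted when it had at least 1 CPM and at least 4 times its background. Such a division always returns some pair of edges, and these libraries also made the main calls, so it describes only how far the edges move. The edges were then positions 70 and 235 in library 40, 55 and 237 in library 41, and 71 and 211 in library 42. Between them 31.9, 35.0 and 41.1% of features were counted, against 12.3, 13.2 and 13.5% outside. With a single boundary in place of a pair, the best division fell after position 256, at *nme5.L* (a call lost in 3 of 11 settings), with 30.5% of features above background before it and 14.5% after it. The low-numbered edge near position 70 and the high-numbered edge between 211 and 238 are thus known only to within this range.

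The net level of the block was higher than that after it. Its edges were placed by calls of a higher hybrid level, so these values describe the block and carry no test. Its net level was 4.88, 5.96 and 6.16 CPM per feature in the 3 hybrid libraries (5.67 ± 0.688, SD, n = 3), and 3.65 ± 0.730 without *ccng1.L*. At positions 239 to 1474 it was 0.670, 1.04 and 1.08 CPM per feature (0.927 ± 0.224). Thus 43.6% of the net 3L level came from 169 features. Few of these carried much of it: of 958 CPM net in the block, *ccng1.L* gave 345 and the model Xelaev18016933m 150. The model Xelaev18016751m had 88.05 to 94.9 CPM in the hybrid libraries. The block level without all of these was not computed. A feature with at least 5 CPM, at least 4 times its background and a call was found at 20 of the 169 positions (11.8%), against 24 of the 1236 positions after the block (1.94%). The same criterion was met by 12 to 13.6% of the features of the other 7 L chromosomes and by 3.64% of those of 4L. Among genes with an S copy above background, the L copy was too in 10 of 19 in the block (52.6%, exact interval 28.9 to 75.6%) and in 51 of 230 after it (22.2%, 17 to 28.1%). The block holds few genes for this measure, and their calls helped to place its edges. The interval is wide and takes no account of that choice, so it sets no comparison with the other 7 L chromosomes.

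The gene with the highest level on 3L was *ccng1.L* at position 219, which encodes cyclin G1. It had 350, 358 and 329 CPM in hybrids, against 0.643, 0.549 and 0.788 CPM in *X. tropicalis*. All hybrid libraries were far above all *X. tropicalis* libraries, with a log2 fold change of 9.03 ± 0.29 (SE; edgeR adjusted p = 6.62e-23). It made up 15.7% of the net level of the chromosome. Its S homeologue had 26.5, 17.8 and 16.7 CPM in hybrids, so the L copy was the far more abundant paternal RNA of this gene. The *X. tropicalis* orthologue had 647, 473 and 445 CPM in hybrids, against 97.0, 53.6 and 46.6 CPM in *X. tropicalis* embryos. It rose with a log2 fold change of 2.99 ± 0.27 (edgeR adjusted p = 0.000175), and paternal *ccng1.L* reached 66.2% of its level in hybrids.

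A pair of features without a symbol came next, and both are named here after their values were seen. Xelaev18016933m, at position 194, to which the table gives the human name *NPM1* (nucleophosmin, a nucleolar protein), had 114, 153 and 183 CPM in hybrids, against 0.122, 0.317 and 0.347 CPM in *X. tropicalis*. Xelaev18016751m, at position 105 and with no gene name in the table, had 89.98, 88.05 and 94.9 CPM in hybrids, against 0.214, 0.137 and 0.0844 CPM. In both, the groups did not overlap and background was under 1 CPM.

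Further symbol-named genes of the block had lower levels. The *slu7.L* copy, a splicing factor gene, had 13.8, 18.2 and 24.3 CPM in hybrids, against 0.0511, 0 and 0.0375 CPM. The *ddx46-like.L* copy, named for an RNA helicase of splicing, had 9.05, 21.0 and 24.5 CPM in hybrids, against 0.153, 0.0951 and 0.0469 CPM. The *cnot8.L* copy, a deadenylase subunit of the CCR4-NOT complex that shortens polyA tails, had 14.7, 15 and 17.1 CPM in hybrids, against 0.0204, 0.211 and 0 CPM. In these 3 genes every hybrid library was above every *X. tropicalis* library, and the spread within hybrids was widest for *ddx46-like.L*. Of *larp1.L*, encoding a binding protein of mRNAs for the translation machinery, the feature had 46.2, 54.1 and 57.1 CPM in hybrids, against 17.1, 26.0 and 25.2 CPM, so that much of its hybrid level was at background height (log2 fold change 1.20 ± 0.29, edgeR adjusted p = 0.000951).

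The ubiquitin-conjugating enzyme gene *ube2b.L* had 6.72, 9.92 and 12 CPM in hybrids, against 0.225, 0.359 and 0.375 CPM. The stress granule protein gene *g3bp1.L* had 8.46, 6.42 and 13.6 CPM in hybrids, against 2.97, 1.72 and 1.72 CPM. Both were above background with no overlap. The homeobox gene *cdx1.L*, a regulator of posterior identity that is switched on in the embryo, had 4.67, 3.60 and 6.42 CPM in hybrids, against 0.0102, 0 and 0.0188 CPM (edgeR adjusted p = 2.41e-07). Its S copy had a net level of 1.27 CPM, so here too the L copy was the more abundant.

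Features above background also lay side by side in the block. The longest unbroken stretch of them had 6 features, at positions 70 to 75, and included *tspo.L* (a mitochondrial outer membrane protein), *cdpf1-like.L* and *yars2-like.L*, named for the mitochondrial tyrosyl-tRNA synthetase. Of these, *cdpf1-like.L* was the most abundant, with 11.2, 19.7 and 14.8 CPM in hybrids, against 0.0511, 0.0845 and 0.0281 CPM. The next stretches had 5 features (positions 138 to 142, which hold *g3bp1.L*), 4 (177 to 180, with *bpgm.L*) and 4 (208 to 211, from *sec24a-like.L* to *txndc15-like.L*). After the block the longest such stretch also had 4 features (863 to 866, from *tmod3.L* to *scg3-like.L*). The call of *tmod3.L* was lost in 4 of 11 alternative settings, and those of *sec24a-like.L* and *txndc15-like.L* in 1 of 11 each.

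Before the block 4 features were above background, and the highest was *upk3a.L*. The *upk3a.L* feature at position 56, a uroplakin gene of urothelial and other epithelial surfaces, had 29.9, 29.9 and 44.8 CPM in hybrids, against 0.102, 0.0317 and 0.0281 CPM (log2 fold change 9.30 ± 0.56, edgeR adjusted p = 9.61e-16). The model Xelaev18016623m at position 28, named after its values were seen, had 4.89, 7.74 and 14.6 CPM in hybrids, against 0.0306, 0.201 and 0.0563 CPM. Both features had no overlap between groups. Positions 1 to 25 and 29 to 54 each formed a run with 0 features above background. Before the block, 2 of 16 S partners were above background, against 19 of 42 in the block and 230 of 444 after it. Silence before the block could thus be judged against an S copy for few genes.

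**Figure D3:**
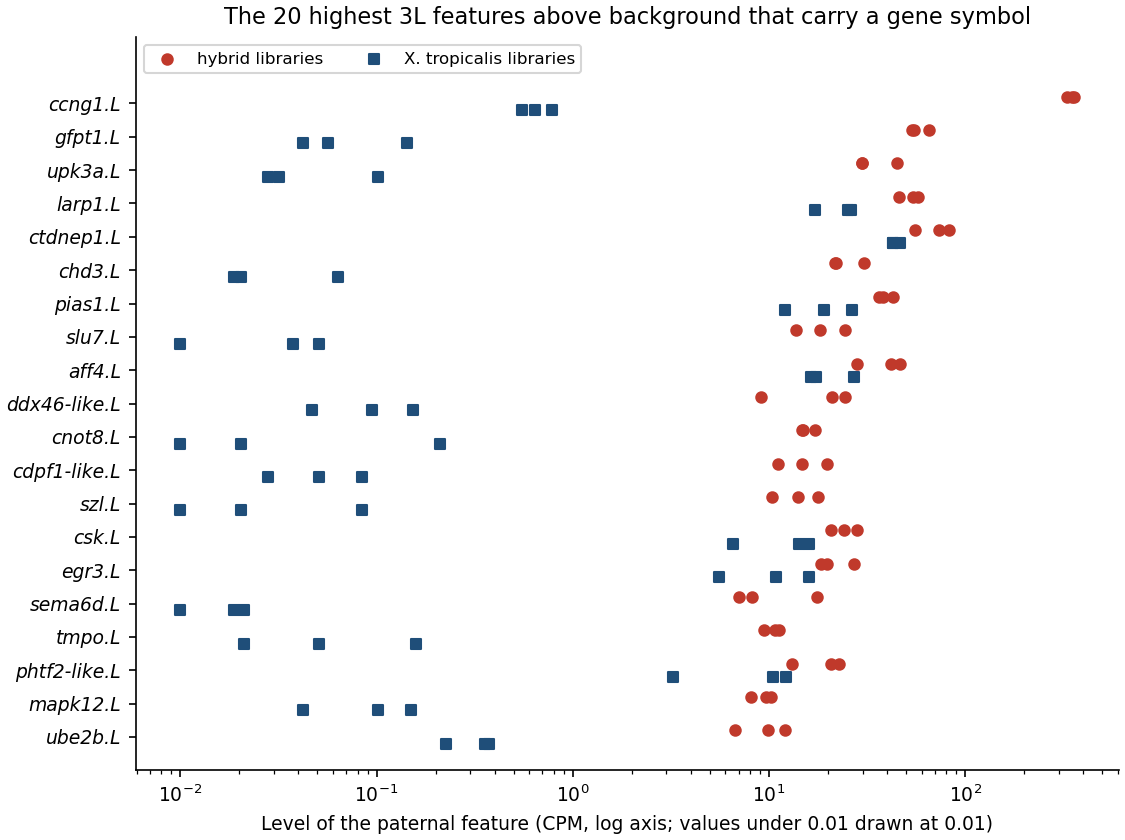
CPM (log axis) of the 20 symbol-named 3L features with the highest net level among those above background, with hybrid libraries as red circles drawn above the blue squares of the *X. tropicalis* libraries. Genes such as *ccng1.L*, *gfpt1.L* and *szl.L* are separated by a wide gap, whereas *ctdnep1.L*, *aff4.L*, *csk.L* and *egr3.L* lie close to their background.

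Past position 238 expressed genes were sparser. The most abundant with a symbol and a low background was *gfpt1.L* at position 1050, which encodes the entry enzyme of the hexosamine pathway, with 53.5, 65.1 and 54.7 CPM in hybrids, against 0.143, 0.0422 and 0.0563 CPM in *X. tropicalis*. The hybrid libraries were all far above the others (log2 fold change 9.46 ± 0.49, edgeR adjusted p = 1.36e-17). Its L copy was at 167% of its S copy, which had 43.7, 24.5 and 35.6 CPM in hybrids. The *X. tropicalis* orthologue of *gfpt1*, held from the mother only in hybrids, had 351, 244 and 287 CPM there. In *X. tropicalis* embryos, which hold it from both parents, it had 926, 796 and 832 CPM. It was lower in hybrids by 1.53 ± 0.14 on the log2 scale (edgeR adjusted p = 0.000175).

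The gene *chd3.L* at position 1375, encoding a chromatin remodelling ATPase of the NuRD family, had 22, 21.6 and 30.6 CPM in hybrids, against 0.0204, 0.0634 and 0.0188 CPM. The neighbours *mapk12.L* and *szl.L* at positions 580 and 581 were both expressed. Of these, *mapk12.L*, a p38 MAP kinase gene, had 9.71, 8.14 and 10.3 CPM in hybrids, against 0.102, 0.0422 and 0.150 CPM, and reached 36.8% of its S copy. The *szl.L* gene, encoding sizzled, a ventral secreted inhibitor of the proteases that cut the BMP antagonist chordin, had 10.3, 14.0 and 17.7 CPM in hybrids, against 0.0204, 0.0845 and 0 CPM, and reached 121% of its S copy. The *sema6d.L* gene at position 872, a transmembrane semaphorin, had 7.06, 8.21 and 17.5 CPM in hybrids, against 0, 0.0211 and 0.0188 CPM. These genes had no overlap between groups, and library 42 was the highest hybrid library for *szl.L* and *sema6d.L*.

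Also after the block, *tmpo.L*, encoding the nuclear envelope protein thymopoietin, had 9.47, 10.8 and 11.3 CPM in hybrids, against 0.0511, 0.0211 and 0.159 CPM, or 30.9% of its S copy. This percent is imprecise, because *tmpo.S* had 88.5, 56.8 and 89.9 CPM in hybrids on a background of 42.6, 42.6 and 48.9 CPM. The net level of *tmpo.S* was 33.7 ± 18.7 CPM (SD, n = 3). The ribosomal protein gene *rpl37a.L* had 5.51, 5.07 and 6.57 CPM in hybrids, against 0.0102, 0.0106 and 0.0281 CPM. Of the 51 genes after the block whose L and S copies were both above background, the L copy exceeded the S copy in 14 and was under 10% of it in 20, with a median of 26.5%. A call above background there thus ranged from a full paternal level to a trace.

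Several calls rested on small excesses over a high background. The *ctdnep1.L* feature had 55.6, 73.6 and 82.8 CPM in hybrids, against 43.1, 46.5 and 42.9 CPM (log2 fold change 0.68 ± 0.26, edgeR adjusted p = 0.0359), and its call was lost in 6 of 12 alternative settings. The features *aff4.L*, *csk.L*, *egr3.L*, *phtf2-like.L* and *pias1.L* likewise had log2 fold changes between 0.94 and 1.13, and lost their calls in 3, 3, 5, 6 and 1 of 12 settings. In all, 13 of the 254 calls had a hybrid level under 4 times the background and 8 had a background over 5 CPM, while 85 had 0 counts in every *X. tropicalis* library.

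Many genes after the block were silent, meaning not above background, although their S copy was abundant. The L copy of *fgfr4*, a fibroblast growth factor receptor, had 0, 0.210 and 0 CPM in hybrids, against 0, 0 and 0 CPM in *X. tropicalis*, while *fgfr4.S* had 74.2, 84.5 and 68.5 CPM in the same hybrid libraries. The L copy of *kiaa0101*, a PCNA-associated factor, had 0, 0.281 and 0 CPM in hybrids, against 0 in all *X. tropicalis* libraries, and its S copy had a net level of 58.0 CPM. The L copy of *hnrnph1*, a splicing regulator, had 0.0134, 0.0234 and 0 CPM in hybrids, against 0.0102, 0.0317 and 0.0281 CPM, while *hnrnph1.S* had 19.9, 27.6 and 42.6 CPM. In these 3 genes the hybrid libraries showed either reads in library 41 alone or a level like the background.

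The L copies of *snrnp200* (a spliceosomal helicase), *eif3j-like*, *ube2q2*, *sltm*, *pdia3* (a protein disulfide isomerase) and the MAP kinase phosphatases *dusp1* and *dusp6* were also not above background. Their S copies had net levels of 33.6, 27.4, 29.3, 29.5, 26.7, 68.8 and 25.5 CPM, and the L copies were at 0.656, 0.299, 1.08, 2.12, 2.50, 1.18 and 2.16% of these. For *pdia3.L* the edgeR adjusted p was 0.0620, with 0.498, 0.561 and 0.968 CPM in hybrids, against 0.0102, 0.0106 and 0.00938 CPM. The groups did not overlap for *pdia3.L*, *sltm.L* or *dusp6.L*, and each passed in 1 of 11 alternative settings. For these genes, silent means a trace that missed the threshold. Among the genes with the most abundant S copies, *mex3b.L*, *fam3c.L* and *ccdc71l.L* had background over 2 CPM in all *X. tropicalis* libraries, and a low paternal level was not detectable in them. The *cnot2.L* feature, of a CCR4-NOT subunit, also missed the threshold on a high background, with 154, 183 and 155 CPM in hybrids, against 92, 134 and 121 CPM (edgeR adjusted p = 0.0596). The *tnpo3.L* feature had 7.03, 9.46 and 7.22 CPM in hybrids, against 2.6, 4.74 and 4.21 CPM (edgeR adjusted p = 0.126). In both, every hybrid library was above every *X. tropicalis* library, and *cnot2.L* passed in 3 and *tnpo3.L* in 1 of 12 alternative settings.

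Silent genes were also seen where the maternal orthologue was abundant. The features *zfand6.L* and *kif20a-like.L* had 0 CPM in at least 2 of 3 hybrid libraries, with maternal orthologues at 590 and 630 CPM in hybrids. Silent features of this kind also lay in the block (*ctnna1.L*, orthologue at 752 CPM) and before it (*nup50.L*, 736 CPM). For *nup50.L*, silent means only that it missed the threshold. It had 3.55, 7.39 and 6.21 CPM in hybrids, against 0.398, 0.940 and 3.88 CPM (edgeR adjusted p = 0.0703), and passed in 3 of 11 alternative settings. The S copies of *ctnna1*, *nup50* and *kif20a-like* were not above background either. The L copies of *idh2*, the mitochondrial NADP-dependent isocitrate dehydrogenase, and *gdi2*, a Rab GDP dissociation inhibitor, had net levels of 0.245 and -0.0228 CPM, with maternal orthologues at 941 and 672 CPM. The S copies of *idh2* and *gdi2* were at 7.79 and 6.61 CPM. The FGF receptor gene *fgfr1.L* had 1.33, 0 and 1.01 CPM in hybrids, against 0.0102, 0.0211 and 0.0188 CPM, and did not pass the test (edgeR adjusted p = 0.0734). It passed in 2 of 11 alternative settings.

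Runs of neighbouring features with 0 above background were measured in 2 ways. Counted over all features, the longest run on 3L had 36 features, at positions 1426 to 1461, around *gigyf1.L* and *nlgn2.L*. The next had 32 (601 to 632, from *kif21a.L* to *dnajc2.L*), 30 (1385 to 1414, around *pld2.L* and *rnf167.L*), 28 (724 to 751, from *nme6.L* to *slc28a2.L*) and 26 (29 to 54, from *rassf8.L* to *ribc2.L*). In all, 13 runs of at least 20 features covered 328 positions. Such runs also occur elsewhere, since the longest was 36 features on 6L, 42 on 4L and 10 to 24 on the other 15 chromosomes, and 1 library set the length on 3L: without hybrid library 42 the longest run had 81 features. A run without a call is not a run without paternal reads. The net level per feature was 0.816 ± 1.36, 1.02 ± 1.10 and 1.12 ± 0.593 CPM in the 3 longest runs (SD, n = 3), about the 0.927 ± 0.224 of all positions 239 to 1474. In the longest run 10 of 36 features had a net level over 1 CPM, with a highest value of 8.11, and in the third the highest was 18.8. The highest feature of each lay on a high background, as did *kif21a.L* of the second run, with 190, 189 and 247 CPM in hybrids, against 162, 190 and 144 CPM in *X. tropicalis*. The runs from *nme6.L* to *slc28a2.L* and from *rassf8.L* to *ribc2.L* had 0.0719 ± 0.120 and 0.489 ± 0.243 CPM per feature.

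Counted only over genes whose S copy was above background, the longest run of silent 3L copies had 23 genes, from *gdi2.L* (position 681) to *edc3.L* (798). Over this stretch the L copies summed to 7.90 CPM net and the S copies to 146 CPM, or 5.42%. The next runs had 17 genes (*ebf2.L* to LOC101733265.L, positions 1127 to 1251), 14 (*slc30a4.L* to *furin.L*, 882 to 923) and 11 (*wwc2.L* to *kiaa1191.L*, 270 to 346). The longest such run was 18 genes on 4L and 4 to 6 genes on the other 7 L chromosomes. With each library left out in turn, the longest run on 3L had 19 to 22 genes. Beyond position 1300 no 3L gene had an S partner of the same name at all, so the high-numbered end could not be judged against an S copy. Orthologues were present there but low in the long runs. In hybrids, 14 summed to 155 CPM at positions 1426 to 1461 and 7 to 113 CPM at 1385 to 1414. At positions 29 to 54, 11 summed to 139 CPM. At 601 to 632, 21 summed to 1327 CPM, and at 724 to 751, 18 summed to 1491 CPM.

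Between silence and full expression lay traces of RNA. At positions 239 to 1474 the L copies summed to 9.88, 8.06 and 8.70% of their S copies in the 3 hybrid libraries, with a median of 3.65% over 230 genes. The sum depends on few features. Of 265 CPM net, *gfpt1.L* gave 57.7 and the uncalled *cnot2.L* 48.4 on a background of 116 CPM, while *mex3b.L* entered with -29.6. The *mdm2.L* gene, encoding a ubiquitin ligase, had 6.90, 2.03 and 5.59 CPM in hybrids, against 0, 0.391 and 0.0188 CPM (edgeR adjusted p = 0.000562), while *mdm2.S* had 63.8, 93.4 and 84.3 CPM. The *pfkfb3.L* gene, a regulator of glycolysis, had 4.02, 0.0117 and 2.03 CPM in hybrids, against 0, 0 and 0.0188 CPM, at 2.14% of its S copy. Library 41 was the lowest hybrid library for both genes, and for *pfkfb3.L* it was as low as the background.

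The *foxi1.L* gene, an ectodermal forkhead factor, had 0.0807, 1.85 and 2.21 CPM in hybrids, against 0 in all *X. tropicalis* libraries, at 6.27% of *foxi1.S*. The cyclin B2 gene *ccnb2.L* had 0.0269, 0 and 2.83 CPM in hybrids, against 0, 0.0106 and 0.0188 CPM, at 2.16% of its S copy, so its call rested on library 42 and the groups overlapped. The genes *prickle1.L*, *btg1.L* and *lrig3.L*, named after their values were seen because their S copies were abundant, had net levels at 0.749, 0.719 and 3.05% of S copies at 295, 289 and 121 CPM. The *btg1.L* feature, an antiproliferative gene, had 2.11, 1.15 and 3.01 CPM in hybrids, against 0.0102, 0 and 0.0188 CPM. In whole embryos a gene expressed in few cells and a gene expressed weakly in all of them cannot be told apart, and whether reads of S copies were counted on L features was not tested.

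Grouped by role, the 3L genes above background came from most classes, and the share was below that of the same class on the other *X. laevis* chromosomes in most of them. The lists were drawn up by gene name with earlier results of these data known, so they are described and not tested. In the list of splicing factors, 1 of 4 tested 3L members was above background (*snrpg.L*, with 1.96, 3.72 and 2.20 CPM in hybrids, against 0.0204, 0.158 and 0.0188 CPM), and elsewhere 80.6% were. This list is incomplete. It leaves out *slu7.L* and *ddx46-like.L*, both above background, and *snrnp200.L*, which was not, so its share does not stand for all splicing genes of 3L. Of early zygotic and mesendoderm regulators it was 4 of 14 (*cdx1.L*, *wnt8a.L*, *foxi1.L* and *szl.L*), and elsewhere 60.3%. Of cell cycle and mitosis genes it was 3 of 8 (*ccng1.L*, *cdc25c.L* and *ccnb2.L*), and elsewhere 62.8%. In the list of signalling receptors and ligands it was 0 of 8, and elsewhere 46.3%. The 8 include *ephx3.L*, which entered by its name and is an epoxide hydrolase gene, not a receptor or ligand.

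Within the zygotic regulators, the Wnt ligand gene *wnt8a.L* had 0, 0.468 and 1.20 CPM in hybrids, against 0 in all *X. tropicalis* libraries (edgeR adjusted p = 0.0364), and lost its call in 5 of 11 settings. All 7 features to which the table gives the human name *NODAL*, of the nodal family of TGF-beta ligands, at positions 1167 to 1184, were not above background. Among these, *nodal3.2.L* had 0.565, 0.561 and 0 CPM in hybrids, against 0 in all *X. tropicalis* libraries (edgeR adjusted p = 0.0811). Copies in such a family can share reads, so the split between them is uncertain.

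In the list of DNA damage and p53 genes, 4 of 7 tested were above background (*ccng1.L*, *rad50-like.L*, *mdm2.L* and *parp16-like.L*), against 49.4% elsewhere. The call of *rad50-like.L* was lost in 4 of 11 settings. The *parp16-like.L* gene entered by its name and is named for an enzyme of the endoplasmic reticulum, so its place in this list is doubtful. The list of adhesion and cytoskeleton genes had 5 of 9, against 57.5%. It counts *actr6.L*, a nuclear actin-related protein gene, by its name. Chromatin and histone genes had 2 of 6 (*kdm7a.L* and *chd3.L*), against 58.4%, zinc finger genes 2 of 7, against 57.9%, DNA replication genes 2 of 4 (*pole4.L* and *mcm7.L*), against 60%, and proteasome and ubiquitin genes 1 of 3 (*ube2b.L*), against 63.6%.

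The smaller lists had few 3L members. Ribosomal proteins had 1 of 2 above background (*rpl37a.L*, not *rps16.L*), against 79.0% elsewhere, and translation factors 0 of 1, against 71.2%. The respiratory chain had 1 of 2 (*ndufa9.L*), against 45.9%, and glycolysis and the TCA cycle 1 of 2 (*pfkfb3.L*), against 48.7%. Mitochondrial carriers and import had 2 of 3 (*slc25a3.L* and *slc25a37.L*), against 58.3%, and mitochondrial ribosome and translation genes 0 of 1, against 46.2%. With 1 to 4 members a list, these shares set no order between classes.

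The maternal orthologues show what the hybrid held of the same genes from the other parent. Of 781 tested *X. tropicalis* orthologues of 3L genes, 5 rose (0.640%) and 23 fell (2.94%) in hybrids relative to *X. tropicalis* embryos, against 0.753% and 3.03% of all *X. tropicalis* features. The median log2 fold change was -0.01 over these orthologues and -0.01 over all *X. tropicalis* features. Both shares were thus near the background, and the orthologues of 3L genes did not stand out as a class. Hybrids held these genes from the *X. tropicalis* mother only, and the comparison embryos from both parents. How much of any change reflects copy number was not tested. Of the 23 that fell, 23 had their paternal partner at positions 239 to 1474, as had 678 of the 781 tested.

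Single orthologues changed strongly. That of *mdm2* had 312, 320 and 264 CPM in hybrids, against 66.9, 52.0 and 53.4 CPM in *X. tropicalis* embryos (log2 fold change 2.38 ± 0.15, edgeR adjusted p = 3.57e-05). Like *ccng1* it rose, but *mdm2.L* reached only 1.57% of its orthologue where *ccng1.L* reached 66.2%. The orthologues of *foxi1*, *tmem140* and *cpm* also rose, and the call for *cpm* was lost in 7 of 9 settings. That of *s1pr5*, a sphingosine 1-phosphate receptor gene, had 2.53, 0.772 and 3.03 CPM in hybrids, against 165, 155 and 130 CPM (log2 fold change -6.16 ± 0.44, edgeR adjusted p = 8.62e-05). That of *gatm*, the enzyme of the first step of creatine synthesis, had 190.5, 181 and 192 CPM in hybrids, against 754, 604 and 587 CPM (log2 fold change -1.78 ± 0.12, edgeR adjusted p = 8.29e-05). The groups did not overlap for *mdm2*, *s1pr5* or *gatm*. The orthologues of *angpt4*, *lamb1* and *dusp6* fell too, and the call for *dusp6* was lost in 3 of 9 settings.

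**Figure D4:**
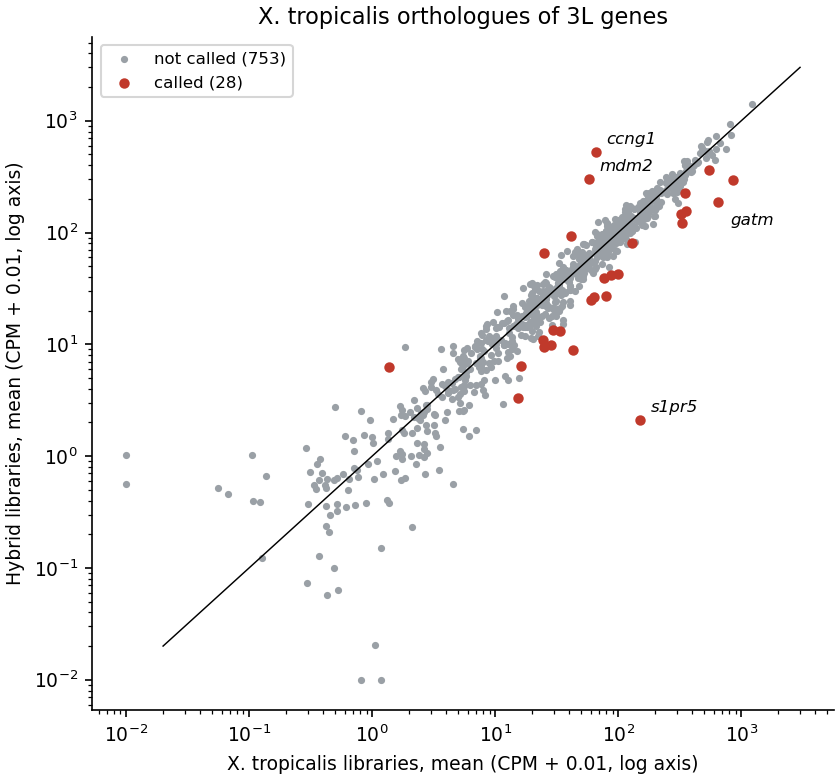
Mean hybrid level against mean *X. tropicalis* level (CPM + 0.01, log axes) of the 781 tested *X. tropicalis* orthologues of 3L genes, with the line of equal levels and the 28 called ones in red. Nearly all orthologues lie along the line, *ccng1* and *mdm2* stand above it, and *gatm* and *s1pr5* below it.

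Against these maternal copies, the summed net paternal level of 3L was 1.77, 2.41 and 2.41% of the summed orthologue level in the 3 hybrid libraries (2.20 ± 0.372%, SD, n = 3), against 1.88% for 4L and 6.92 to 11.4% for the other 7 L chromosomes. Within 3L it was 8.38 ± 1.03% in the block and 1.33 ± 0.301% after it. The block value covers 90 genes with *ccng1.L* among them, and it was not computed without that gene. For the whole of 3L the value was 1.67% without *ccng1.L*. As a median over genes the level was 3.79% in the block, 0.518% after it, 1.08% on 4L and 4.49 to 7.19% on the other 7 L chromosomes. The orthologue level includes RNA stored in the egg as well as new transcripts, which these counts do not separate.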

How the data were processed

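PolyA RNA of whole embryos was sequenced in 3 hybrid and 3 *X. tropicalis* libraries, grouped by the labels. The authors deposited raw counts per feature, and BWA 0.7.10 is named in the submitters' processing notes. How reads were counted, on which genome builds and models, with which filters and strand setting, is not stated in the labels or headers, and no genome or sequence was used. Species, chromosome and model number were read from the feature names. The second table, counts summed over human names, was not used.

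*X. laevis* features reaching 10 counts summed over the 6 libraries were tested with edgeR 4.0.16 (R 4.3.3, quasi-likelihood), with library totals over all features and TMM factors from *X. tropicalis* features. The *X. tropicalis* features kept by the edgeR filter were tested separately. P-values were Benjamini-Hochberg adjusted over all features at 0.05. CPM are counts over effective library sizes. The biological coefficient of variation was 1.32 for *X. laevis* and 0.650 for *X. tropicalis* features. Standard errors come from the fold change and F. Replicates of a group differed by a chi-square per degree of freedom of 74.7 to 133, so none was a repeat deposit. The p-values reflect only how far these libraries vary. The fits were tested on simulated counts.

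Alternatives were leaving out each library, DESeq2 1.42.0, other scaling and filters, no background subtraction, and other windows. The block boundaries and values without *ccng1.L* were added after seeing the data, as were the block, remainder and homeologue runs with libraries left out. The members, lists and tests were chosen with earlier results of these data known. Named genes were taken by a rule: the 20 highest symbol-named features above background, the 15 silent ones with the highest called S copy, the 10 silent ones with the highest orthologue, run ends and boundaries, up to 4 called and 2 uncalled per list, and the 5 largest changes each way among orthologues. Not every gene it takes is reported here. Figures were drawn with matplotlib 3.10.9.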

Additional observations from a re-analysis of the deposited data

How the results depend on the processing

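No paired analysis was possible because the replicate numbers 40 to 42 and 37 to 39 are not shared between groups. With each library left out in turn, 191 to 250 3L features were above background (254 with all). These were 17.1 to 21.6% of those tested, against 36.1 to 40.2% of all tested *X. laevis* features. The share among genes with a called S copy was 20.8 to 24.4%, that in the block 34.3 to 40.2% and that after it 10.4 to 14.2%. The longest silent run had 36 to 81 features. Of the orthologues 4 to 9 rose and 13 to 26 fell, where 0.365 to 1.06% and 1.79 to 3.31% of all *X. tropicalis* features did. DESeq2 put 339 features above background (27.5% of those tested on 3L, where it called 45.4% of all *X. laevis* features), and 20.4% of those after the block. It called 31 of 781 orthologues higher and 40 lower, where it called 2.78% and 5.63% of all *X. tropicalis* features. With DESeq2 the rising share was thus above the overall one, and the falling share below it. With at least 10 counts as filter, 11 of 856 orthologues rose and 30 fell, where 1.03% and 3.18% of all *X. tropicalis* features did. A filter of at least 5 CPM in 3 libraries left 158 tested 3L features, of which 47 were above background (29.7%), against 66.6% of all *X. laevis* features. The net level per feature was 3.92 CPM without background subtraction, 0.838 over features with under 0.1 CPM of background and 1.17 with library totals in place of TMM factors. The percent of the orthologue level was 5.83 without subtraction, 0.661 as a median over genes and 1.67 without *ccng1.L*. The causes of these differences were not tested. Of 54 named paternal features above background, 34 kept the call under every alternative that tested them, as did 8 of 10 named orthologues, and 0 named values reversed. Features with high background limit what can be seen of low paternal levels, as does the depth for features with a few reads.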
